A study of Mus musculus with 8 samples.

Results

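Integrins are cell surface receptors made of one alpha and one beta subunit, which bind the extracellular matrix outside the cell and couple it to the actin cytoskeleton inside. The 10 genes described here encode the alpha and beta subunits typical of mesenchymal cells. They were chosen as the rows with the symbols Itga1, Itga5, Itga7, Itga8, Itga11, Itgav, Itgb1, Itgb3, Itgb5 and Itgb8, 10 of the 55276 gene symbols used. The rule uses no measured value, but the genes were picked with earlier results of these data known. Itgb1 pairs with many alpha subunits: with Itga5 it forms the classical fibronectin receptor, with Itga1 or Itga11 a collagen receptor, with Itga7 a laminin receptor and with Itga8 a receptor for nephronectin. Itgav pairs with Itgb1, Itgb3, Itgb5 or Itgb8 in receptors for vitronectin, fibronectin and the latent form of TGFβ, which some of these receptors can activate. In regenerating muscle these receptors hold fibroblast-like cells in the transient matrix that they deposit.

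The cells were fibro-adipogenic progenitors (FAPs), the resident mesenchymal cells of skeletal muscle, sorted from the tibialis anterior after freeze-pierce injury of mice aged 4 to 6 months. Control mice carried Osr1 flox/+ and Osr1cKO mice Osr1 flox/flox, both with the CAGG Cre transgene, a tamoxifen-inducible Cre active in most cell types, and all mice received tamoxifen from the day of injury. Controls were thus heterozygous for the recombined allele, whose GFP was used to sort the cells of both genotypes, and recombination was not limited to FAPs. There were 2 libraries each of control and Osr1cKO FAPs at 3 and at 7 days post injury (dpi), from 1 mouse per library at 3 dpi and 4 pooled mice per library at 7 dpi. Any difference between days therefore cannot be told apart from the pooling, nor from a possible change of sequencer: the study's methods name 2 instruments with different read lengths and do not say which libraries ran on each, whereas the labels name the same instrument, with the shorter read length, for all 8 libraries. An antibody to the Itga7 protein was in the sorting panel, where it serves to find muscle stem cells, so the level of Itga7 in the sorted cells could depend on the gate.

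Recovered fragments per library, whole read pairs worked back from the deposited values, ran from 36516532 to 51096381. Summed levels of 8 FAP markers were 24216 to 32081 TPM at 3 dpi and 38695 to 44387 TPM at 7 dpi. Col1a1, the largest part, was at 12404 to 25017 TPM at 3 dpi and 24362 to 28084 TPM at 7 dpi. Of the 8, 6 were higher and 2 lower in both 7 dpi controls than in both 3 dpi controls. In Osr1cKO 5 were higher and 2 lower. Lower in both genotypes was Ly6a, at 2020 to 5407 TPM at 3 dpi and 1357 to 1840 TPM at 7 dpi. So was Pdgfra, at 254 to 365 TPM and 197 to 229 TPM. The part of these shifts in the integrin values was not tested. TPM is here a level corrected for the total length of all annotated exons of a gene. The sums of 8 pericyte and smooth muscle markers were 37.2 to 61.2 TPM at 3 dpi and 67.9 to 146 TPM at 7 dpi. Sums for 7 muscle stem cell and myoblast markers were 9.38 to 29.2 TPM at 3 dpi and 26.02 to 60.1 TPM at 7 dpi. Most of these sums was Des, at 8.85 to 27.8 TPM at 3 dpi and 22.7 to 31.7 TPM at 7 dpi. Osr1 itself, the targeted gene, was at 105 and 91.0 TPM in the 3 dpi controls against 70.7 and 71.9 TPM in Osr1cKO, and at 67.6 and 71.6 TPM in the 7 dpi controls against 64.4 and 60.8 TPM. The Osr1 groups did not overlap at either day, and the log2 difference was -0.45 at 3 dpi (limma, adjusted p = 0.774) and -0.28 at 7 dpi (limma, adjusted p = 0.317). Values over the whole gene also count what the recombined allele still makes, so they do not measure the deletion itself.

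Promoter sequence is given for 4 members, because Itga5 and Itgav were lower and Itga8 and Itga11 higher at 7 dpi in both genotypes. The stretches below are the bases just before the RefSeq transcription start in build GRCm38.p6, written 5′ to 3′ in the direction of the gene. Capitals mark a GC box, the letters GGGCGG on either strand, which transcription factors of the SP family can bind. The 4 genes themselves lie, by GENCODE, at chr15:103344286-103366763 (Itga5), chr2:83724397-83806916 (Itgav), chr2:12106632-12301922 (Itga8) and chr9:62677826-62783982 (Itga11). The Itga5 stretch is chr15:103366792-103367041 on the minus strand and the Itgav stretch chr2:83724147-83724396 on the plus strand. Those of Itga8 and Itga11 are chr2:12301945-12302194 on the minus strand and chr9:62677605-62677825 on the plus strand, the latter ended where the GENCODE gene begins.
Itga5: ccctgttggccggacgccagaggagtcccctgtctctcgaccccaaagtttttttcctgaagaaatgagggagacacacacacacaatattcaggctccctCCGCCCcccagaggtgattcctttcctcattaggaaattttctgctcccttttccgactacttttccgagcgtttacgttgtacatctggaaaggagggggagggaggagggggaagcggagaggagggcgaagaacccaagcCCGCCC
Itgav: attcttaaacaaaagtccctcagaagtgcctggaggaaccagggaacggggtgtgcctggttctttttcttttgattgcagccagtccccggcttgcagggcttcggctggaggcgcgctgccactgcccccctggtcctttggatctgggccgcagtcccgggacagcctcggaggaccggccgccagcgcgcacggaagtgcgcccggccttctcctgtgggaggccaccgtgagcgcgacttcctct
Itga8: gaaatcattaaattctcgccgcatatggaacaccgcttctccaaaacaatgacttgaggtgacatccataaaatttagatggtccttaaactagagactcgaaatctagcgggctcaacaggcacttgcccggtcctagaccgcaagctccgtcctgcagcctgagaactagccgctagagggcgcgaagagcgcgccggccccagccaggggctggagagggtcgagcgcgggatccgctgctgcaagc
Itga11: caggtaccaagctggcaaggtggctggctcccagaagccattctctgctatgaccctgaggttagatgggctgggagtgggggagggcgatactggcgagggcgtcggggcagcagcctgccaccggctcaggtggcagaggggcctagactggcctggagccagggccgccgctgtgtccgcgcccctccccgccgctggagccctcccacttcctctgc

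Of the 10 genes, 8 had a promoter in the RefSeq table, and in the 250 bases before the start Itga5 held 2 GC boxes, Itgb5 3 and Itgb1 1. A GC box was present in 32.7% of all 32817 promoters searched over the same length. The other motifs searched on both strands were the TATA box (TATAAA), the AP-1 site (TGANTCA), the TEAD site (CATTCC), an Osr1 site (ACAGTAGC) and the CArG box, found in 12.4%, 6.75%, 12.6%, 0.747% and 1.47% of all promoters. Of these only the TEAD site was found, once, in Itgb1. The matches in Itgb1 did not overlap each other, and the remaining 5 members held none of the 6 motifs in this window. The 8 promoters held 55.6% to 68.4% G or C, against a median of 52.4% over all promoters. Itga5 and Itgav, both lower at 7 dpi, thus differed in these letters, and Itga8 and Itga11, both higher, held none of them.

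The levels covered a wide range. In the 3 dpi controls Itga5 was the most abundant of the 10, at 1442 and 1229 TPM, followed by Itgb1, the shared beta subunit, at 753 and 801 TPM and by Itgb5 at 207 and 265 TPM. Itgav was at 78.9 and 84.0 TPM, Itga11 at 61.6 and 41.7 TPM and Itgb3 at 19.7 and 33.3 TPM. The others were low, with Itga7 at 7.34 and 4.53 TPM, Itga1 at 3.00 and 2.22 TPM, Itgb8 at 0.617 and 1.24 TPM and Itga8 at 0.381 and 0.395 TPM. Osr1cKO at 3 dpi had the same order. At 7 dpi the order in both genotypes began with Itgb1, ahead of Itga5, Itga11 stood above Itgav, and Itga8 stood above Itgb8. In none of the 4 groups did the libraries of neighbours in this order overlap. The order also depends on the annotated exon lengths, which ran from 3553 bases for Itgb5 to 18599 for Itga1. The depth behind these values ran from 35 recovered fragments for Itga8 to 88620 for Itga5, both in control library 1 of 3 dpi, and all 10 genes passed the filter on low values in every comparison. The 10 genes made up between 97.5% and 98.7% of the summed TPM of all 26 integrin subunit genes in each library.

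**Figure D1:**
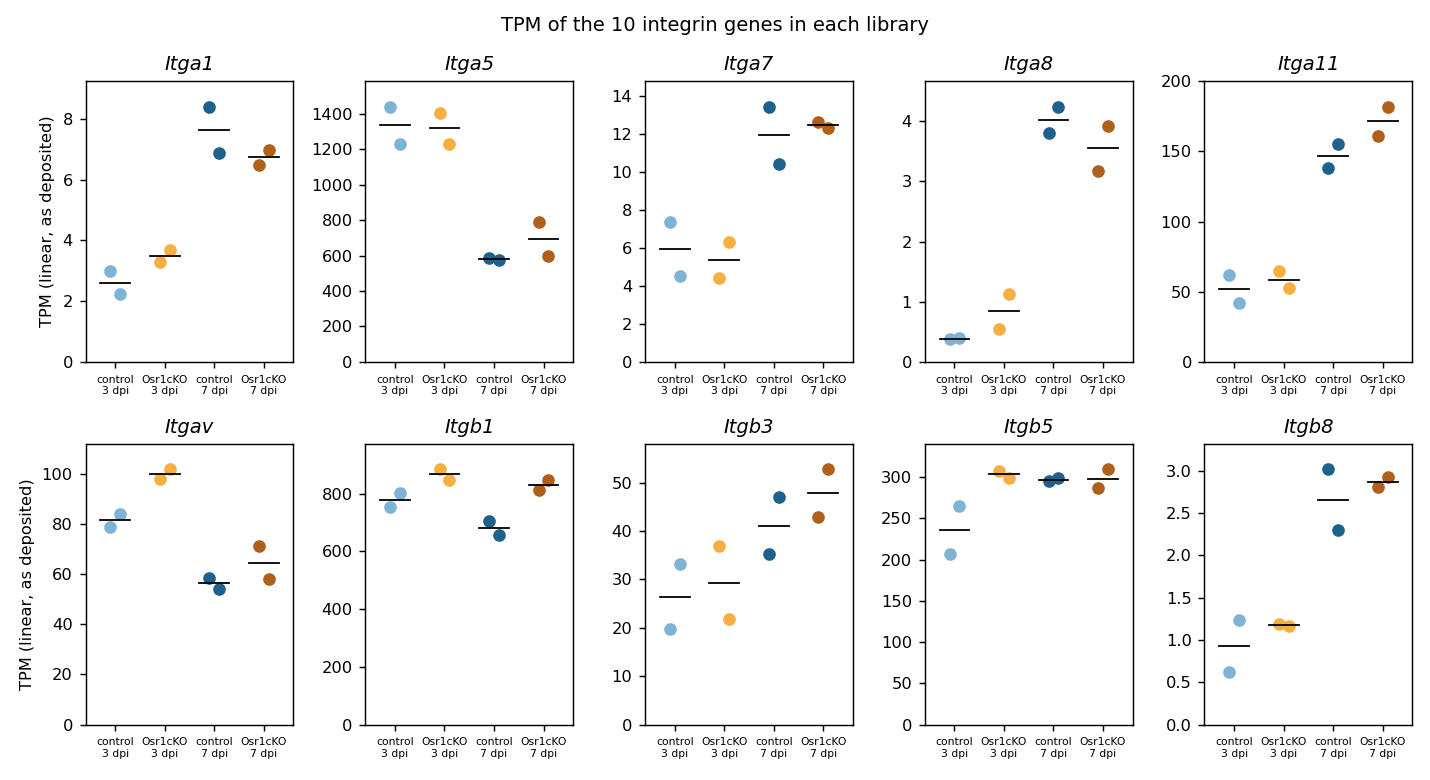
TPM as deposited (vertical axes, linear, from 0, each gene on its own scale) of the 10 genes in the 4 groups, with 1 point per library and a bar at the mean of 2. Itga5 and Itgav were lower and Itga1, Itga7, Itga8, Itga11 and Itgb8 higher in both 7 dpi groups than in both 3 dpi groups.

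The loss of Osr1 was compared with control first. No member passed the test at 3 dpi, at a fold change over 1.2 and an unadjusted p under 0.05 (limma on log2(scaled TPM + 1), the thresholds used by the study for this day). Over all 15698 genes tested, 2.40% were called higher and 3.87% lower in Osr1cKO, and none of these calls had an adjusted p under 0.1 (985 had an unadjusted p under 0.05). Both Osr1cKO libraries lay above both controls for 5 of the 10 members, Itga1, Itga8, Itgav, Itgb1 and Itgb5, and below them for none in TPM as deposited, against 18.2% above and 18.0% below over all genes. The median log2 difference of the 10 was 0.20, and that of all genes 0.01. Markers of other cells also moved at 3 dpi. Of 5 tendon cell markers 4 were higher in both Osr1cKO libraries than in both controls, with sums of 47.1 to 84.1 TPM against 48.9 to 61.3 TPM, and of 7 endothelial markers 6 were lower, with sums of 17.2 to 18.0 TPM against 21.5 to 44.7 TPM. Of 8 FAP markers 1 was higher and 3 were lower, among them Ly6a, which encodes Sca-1, at 5407 and 4232 TPM in control against 3058 and 2020 TPM in Osr1cKO. Of 8 mural markers 1 was higher and 3 lower, and the other lists had at most 2 of their markers on either side. Their part in the integrin values was not tested.

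Of these 5, Itgav and Itgb5, which can form a vitronectin receptor together, came nearest to the threshold. Itgav was at 78.9 and 84.0 TPM in the controls and at 97.8 and 101.8 TPM in Osr1cKO, a log2 difference of 0.29 ± 0.12 (SE, n = 2 per group), with a 95% interval of -0.01 to 0.60 (limma, adjusted p = 0.784). Itgb5 was at 207 and 265 TPM against 308 and 299 TPM, a log2 difference of 0.37 ± 0.17 (limma, adjusted p = 0.824). For both, control library 1 was the lowest of the 4. Both passed the rule with all 8 libraries in the fit, at 0.33 and 0.41, and without control library 2, at 0.33 and 0.55. Itga8 was at 0.381 and 0.395 TPM against 0.547 and 1.13 TPM, a log2 difference of 0.39 ± 0.19 (limma, adjusted p = 0.831), and passed at 0.61 without Osr1cKO library 1.

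Of the most abundant pair, the Itga5 libraries overlapped between genotypes at 3 dpi, at 1442 and 1229 TPM against 1406 and 1232 TPM, and those of Itgb1 did not, at 753 and 801 TPM against 884 and 848 TPM. The log2 difference of Itga5 was -0.01, with an interval of -0.54 to 0.51, and that of Itgb1 was 0.16, with an interval of -0.26 to 0.58. Itgb3, a partner of Itgav, had the widest interval, -0.79 to 1.08, and its libraries lay at 19.7 and 33.3 TPM in control, against 36.8 and 21.8 TPM in Osr1cKO. No difference and a 1.2-fold increase both lay within the intervals of all 10 members.

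At 7 dpi again 0 of the 10 members were called (limma, fold change over 1.2 and adjusted p under 0.1), against 0.0181% of 16577 genes called higher and 0.0483% lower. With an unadjusted p under 0.05 the shares over all genes were 5.30% and 5.83%, and still no member was called. Itgb1 was at 705 and 656 TPM in control, against 814 and 848 TPM in Osr1cKO, Itga11 at 138 and 155 TPM against 161 and 182 TPM, and Itga5 at 589 and 578 TPM against 790 and 598 TPM. These 3 were the members whose Osr1cKO libraries both lay above both controls in TPM as deposited. That was true of 42.8% of all genes, and 10.7% lay below. Without scaling, the median gene at 7 dpi was 0.11 higher in Osr1cKO on the log2 scale. After scaling, the log2 differences were 0.16 for Itgb1, with an interval of -0.07 to 0.39, 0.09 for Itga11, with an interval of -0.13 to 0.31, and 0.11 for Itga5, with an interval of -0.30 to 0.51. Itga7, Itgb5 and Itgb8 had log2 differences of -0.05, -0.12 and -0.01, and turned to 0.07, 0.01 and 0.09 without scaling. Osr1cKO FAPs at 7 dpi also held more tendon cell marker RNA: all 5 markers were higher in both Osr1cKO libraries than in both controls, and their summed level was 590 to 748 TPM against 264 to 369 TPM. Of 7 endothelial markers 5 were higher, with sums of 49.4 to 72.6 TPM against 47.4 to 62.3 TPM, and of 9 leukocyte markers 4 were higher and 1 lower, with sums of 42.4 to 63.5 TPM against 42.4 to 44.5 TPM. Of 6 myofibre markers 1 was higher and 4 were lower, with sums of 42.2 to 42.7 TPM against 61.8 to 71.4 TPM. Whether these moved any integrin value was not tested.

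**Figure D2:**
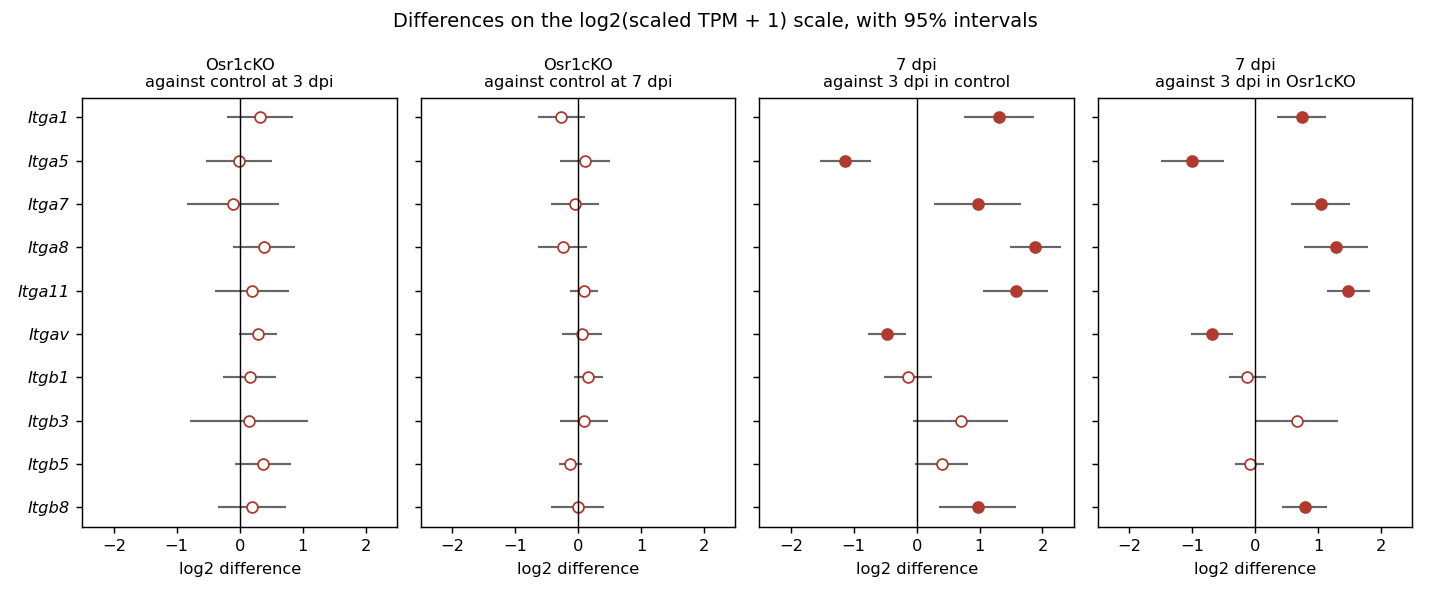
Log2 differences of the 10 genes in the 4 comparisons (horizontal axes, log2(scaled TPM + 1) scale, points with 95% intervals from limma, 2 libraries per group). Filled points passed the rule of their comparison: 0 of 10 for either comparison of genotypes, and the same 7 of 10 for both comparisons of days.

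Between the days most members differed. In control FAPs 5 members rose from 3 to 7 dpi and 2 fell (limma, fold change over 1.2 and adjusted p under 0.05), where 16.7% of 16522 genes were called higher and 21.7% lower. In Osr1cKO FAPs the same 7 were called, each in the same direction, where 21.7% of 16278 genes were called higher and 25.1% lower. The median log2 difference of the 10 was 0.84 in control and 0.70 in Osr1cKO, and that of all genes -0.01 and 0.00. These comparisons share no library. Leaving out either control library at 7 dpi left 0 genes of any kind called in the control comparison, although 4513 and 4185 genes then had an unadjusted p under 0.05, and the lowest adjusted p was 0.0889 and 0.105. All 7 members kept their direction there. In Osr1cKO, 4 members were called without library 2 of 7 dpi, where Itga1, Itga5 and Itgav lost their calls at 0.76, -0.72 and -0.46. Without library 1 of 7 dpi, Itga1 and Itga7 lost theirs, at 0.80 and 1.04. With no filter on low values, which takes in many genes near 0, 3 members were called in control and 4 in Osr1cKO.

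Of the alpha subunits of collagen receptors, the members Itga11 and Itga1 rose. Itga11, whose receptor binds fibrillar collagen, went from 61.6 and 41.7 TPM to 138 and 155 TPM in control and from 64.7 and 52.4 TPM to 161 and 182 TPM in Osr1cKO. No 7 dpi library reached down to the 3 dpi range. The log2 differences were 1.57 ± 0.20 in control (limma, adjusted p = 0.00659) and 1.48 ± 0.14 in Osr1cKO (limma, adjusted p = 0.00172). Itga1, whose receptor also binds basement membrane collagen, went from 3.00 and 2.22 TPM to 8.41 and 6.86 TPM in control and from 3.28 and 3.67 TPM to 6.502 and 6.98 TPM in Osr1cKO. Its log2 differences were 1.31 ± 0.22 (limma, adjusted p = 0.0120) and 0.74 ± 0.15 (limma, adjusted p = 0.0141). Some exonic bases of Itga1, 685 of 18599, are shared with Gm49395 on the same strand, whose reads cannot be told apart there. Itga2, a collagen receptor subunit outside the 10, was lower at 7 dpi in control, at 6.96 and 4.30 TPM against 2.61 and 2.73 TPM, and higher in Osr1cKO, at 2.79 and 3.37 TPM against 3.41 and 4.16 TPM. It was called in neither, with log2 differences of -0.78 and 0.18 (limma, adjusted p = 0.0636 and 0.415).

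Itga8, the subunit of the nephronectin receptor, had the highest ratio of mean TPM between days of the 10 members in both genotypes. It went from 0.381 and 0.395 TPM to 3.80 and 4.24 TPM in control and from 0.547 and 1.13 TPM to 3.18 and 3.93 TPM in Osr1cKO. The Osr1cKO libraries at 3 dpi were both above the controls, and all 3 dpi libraries were well below all 7 dpi libraries. The ratio of mean TPM was 10.4 in control and 4.24 in Osr1cKO. The pseudocount of 1 compresses this on the log2 scale, where the differences were 1.88 ± 0.16 (limma, adjusted p = 0.00377) and, below that of Itga11, 1.28 ± 0.20 (limma, adjusted p = 0.00644). An antisense gene, E030013I19Rik, overlaps 372 of its 7368 exonic bases.

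Itga7, the laminin receptor subunit, and Itgb8, a partner of Itgav in TGFβ activation, rose as well. Itga7 went from 7.34 and 4.53 TPM to 13.4 and 10.4 TPM in control, and from 4.42 and 6.33 TPM to 12.6 and 12.3 TPM in Osr1cKO. The log2 differences were 0.97 ± 0.27 (limma, adjusted p = 0.0431) and 1.04 ± 0.19 (limma, adjusted p = 0.00921). In control the call for Itga7 was lost without scaling, at 0.92 (limma, adjusted p = 0.0518). Muscle stem cells and myoblasts also carry Itga7. Of their 7 markers 4 were higher in both 7 dpi controls than in both 3 dpi controls, and 6 in Osr1cKO. The share of all genes separated like this between days was not worked out. Myog, a myoblast gene, went from at most 0.0526 TPM at 3 dpi to 14.1 and 1.94 TPM in the controls and to 3.34 and 2.37 TPM in Osr1cKO. Pax7, which defines muscle stem cells, was at most 0.0134 TPM at 3 dpi. At 7 dpi it was at 0.170 to 2.30 TPM in the controls and at 0.355 to 0.444 TPM in Osr1cKO. At 3 dpi Myf5 and Myod1 were listed at 0 in both controls, and Pax7 and Calcr in both Osr1cKO libraries. The part of these cells in the Itga7 values was not tested. Itgb8 went from 0.617 and 1.24 TPM to 3.02 and 2.30 TPM in control, with a log2 difference of 0.97 ± 0.24 (limma, adjusted p = 0.0319), and from 1.19 and 1.17 TPM to 2.81 and 2.93 TPM in Osr1cKO, with 0.79 ± 0.14 (limma, adjusted p = 0.00894).

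Most markers of pericytes and smooth muscle, cells that also express Itga1, Itga7 and Itga8, were higher at 7 dpi as well. Of 8 mural markers, 5 were higher and 1 lower in both 7 dpi controls than in both 3 dpi controls, and 7 were higher and 1 lower in Osr1cKO. Here too the share of all genes that separated between days was not worked out. Rgs5, a defining pericyte gene, was at 0.504 to 1.01 TPM at 3 dpi and at 12.3 to 63.6 TPM at 7 dpi. Control library 1 held the most Rgs5 at 7 dpi, 63.6 TPM, and control library 2 the least, 12.3 TPM. Other mural markers moved less or fell. Notch3 was at 9.87 to 21.7 TPM at 3 dpi and at 15.7 to 23.4 TPM at 7 dpi. Cspg4, the marker that was lower, was at 19.4 to 37.6 TPM at 3 dpi and at 13.3 to 18.2 TPM at 7 dpi. Tendon cell markers went from 47.1 to 84.1 TPM at 3 dpi to 264 to 748 TPM at 7 dpi as a sum over 5 genes. At 3 dpi the pericyte marker Higd1b was listed at 0 in both Osr1cKO libraries. Their part in the rise of Itga1, Itga7, Itga8 and Itga11 was not tested. In bulk libraries a different share of cells of a type and a different amount of RNA per cell cannot be told apart.

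The fibronectin receptor alpha subunit and the shared alpha subunit of vitronectin receptors fell. Itga5 went from 1442 and 1229 TPM to 589 and 578 TPM in control, and from 1406 and 1232 TPM to 790 and 598 TPM in Osr1cKO. The 4 libraries of each day did not overlap. The log2 differences were -1.13 ± 0.16 (limma, adjusted p = 0.00835) and -0.9997 ± 0.20 (limma, adjusted p = 0.0128). Itgav went from 78.9 and 84.0 TPM to 58.4 and 54.1 TPM in control and from 97.8 and 101.8 TPM to 71.0 and 58.1 TPM in Osr1cKO, with log2 differences of -0.47 ± 0.11 (limma, adjusted p = 0.0310; 0.0768 with a replicate block) and -0.69 ± 0.13 (limma, adjusted p = 0.0119). A transcript on the other strand, Gm13684, overlaps 634 of the 10744 exonic bases of Itgav.

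Of the beta subunits only Itgb8 was called between days. Itgb1 had log2 differences of -0.13, with an interval of -0.52 to 0.25, in control and -0.12, with an interval of -0.42 to 0.18, in Osr1cKO. Itgb5 had 0.40, with an interval of -0.02 to 0.82, in control and -0.09, with an interval of -0.32 to 0.15, in Osr1cKO. Itgb3 had 0.70 and 0.66, with intervals of -0.05 to 1.46 and 0.0022 to 1.32, and all its 7 dpi libraries lay above the 3 dpi libraries of the same genotype. Without control library 2 of 3 dpi, Itgb3 and Itgb5 passed in control, at 1.12 and 0.63 (limma, adjusted p = 0.00484 and 0.00439). Without library 1 of 3 dpi, Itgb3 passed in Osr1cKO at 1.02.

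The make-up of the alpha subunit transcripts differed between the days. Itga5 took 90.4% ± 0.18 (SD, n = 2) of the summed TPM of the 6 alpha genes in the 3 dpi controls and 72.0% ± 0.80 in the 7 dpi controls. In Osr1cKO its share was 88.7% ± 0.71 at 3 dpi and 72.5% ± 4.41 at 7 dpi. The share of Itga11 was 3.46% ± 0.57 and 18.1% ± 1.52 in control, and 3.93% ± 0.25 and 18.3% ± 4.05 in Osr1cKO. That of Itgav stayed between 4.95% and 7.28% in all 8 libraries. The summed TPM of the alpha genes was 1478 at 3 dpi and 810 at 7 dpi in control, and 1487 and 953 in Osr1cKO, as means of 2 libraries. Among the 4 beta genes Itgb1 took 74.8%, 72.2%, 66.6% and 70.4% in the 3 dpi controls, 3 dpi Osr1cKO, 7 dpi controls and 7 dpi Osr1cKO. The ratio of Itga5 to Itgb1 was 1.91 and 1.53 in the 3 dpi controls, 1.59 and 1.45 in 3 dpi Osr1cKO, 0.836 and 0.880 in the 7 dpi controls and 0.971 and 0.705 in 7 dpi Osr1cKO. It was thus above 1 in every 3 dpi library and below 1 in every 7 dpi library. These shares and ratios also depend on the annotated exon lengths. They are given as a description and were not tested.

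**Figure D3:**
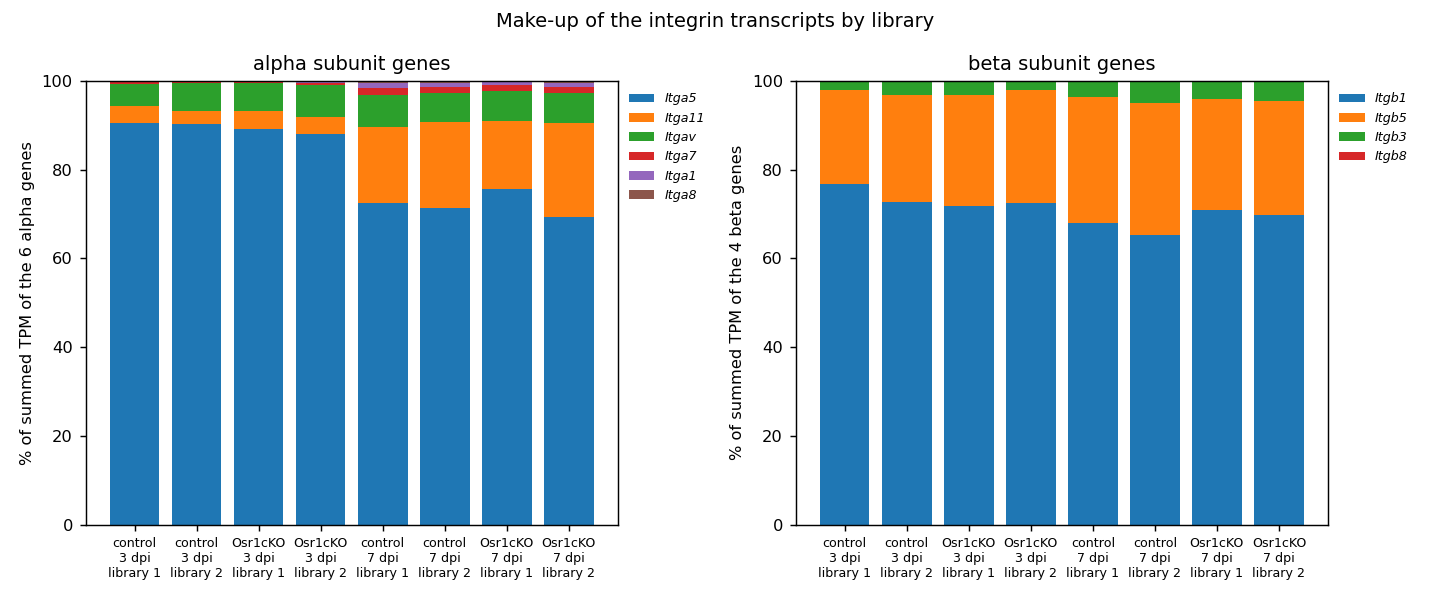
Share of each gene in the summed TPM of the 6 alpha genes (left) and of the 4 beta genes (right), with 1 stacked bar per library (vertical axes in percent, from 0 to 100). Itga5 filled 88.2% to 90.5% of the alpha bar at 3 dpi and 69.4% to 75.7% at 7 dpi, and Itga11 filled 3.06% to 4.10% and 15.4% to 21.1%.

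Whether the effect of genotype differed between the days was tested in a model of all 8 libraries. No gene was called at an adjusted p under 0.05 (limma), so the background was 0% in either direction, and at an unadjusted p under 0.05 it was 6.95% of 17368 genes. Of the members, 3 had an unadjusted p under 0.05, all with a lower log2 difference between Osr1cKO and control at 7 than at 3 dpi: Itgb5 at -0.54, Itga1 at -0.62 and Itga8 at -0.66 on the log2 scale (limma, adjusted p from 0.711 to 0.716). The difference between the genotypes in the rise of Itga1 or Itga8 therefore did not pass the correction.

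Of the other integrin subunits, Itga9, which with Itgb1 forms a receptor for tenascin and osteopontin, was at 12.7 and 21.4 TPM in the 3 dpi controls, 24.4 and 26.9 TPM in 3 dpi Osr1cKO, 14.4 and 17.1 TPM in the 7 dpi controls and 20.7 and 19.7 TPM in 7 dpi Osr1cKO. It thus stood above Itga1, Itga7, Itga8 and Itgb8 in every library. Of these 16 genes, 13 or 14 passed the filter on low values in each comparison, and no gene of this list was called between genotypes. At 3 dpi, 2 of 13 lay above both controls in both Osr1cKO libraries and 8 below, against 18.2% and 18.0% of all genes. Their median log2 difference was -0.22. At 7 dpi, 6 of 14 lay above and 3 below, against 42.8% and 10.7% of all genes, with a median of 0.14. The smallest p values were those of Itga2 and Itga9 at 3 dpi, with log2 differences of -0.67 and 0.60 (limma, adjusted p = 0.784 and 0.821), and of Itgb7 and Itgax at 7 dpi, with -0.53 and 0.28 (limma, adjusted p = 0.314 and 0.459). Between days, 1 of 14 was called higher and 0 lower in control, where 16.7% and 21.7% of all genes were, and 7 were called higher and 1 lower in Osr1cKO, where 21.7% and 25.1% were. The 1 that fell was Itga9, by 0.39 (limma, adjusted p = 0.0370). Itga10, a further collagen receptor subunit, rose in both, from 2.72 and 1.14 TPM to 4.45 and 6.03 TPM in control and from 1.07 and 1.05 TPM to 6.70 and 6.64 TPM in Osr1cKO. Its log2 differences were 1.18 ± 0.32 (limma, adjusted p = 0.0421) and 1.86 ± 0.15 (limma, adjusted p = 0.00144), and 1739 of its 5186 exonic bases are shared with Gm42957 on the same strand. Its call in control was lost without scaling, at 1.13. Itgax, a subunit of myeloid cells, Itga6, a laminin receptor subunit, and Itga3 rose by 0.57, 0.91 and 0.43 in Osr1cKO. Itga3 lost its call without any 1 of the 4 libraries, at 0.40 to 0.50, and Itga6 without library 2 of 7 dpi, at 0.67. Leukocyte markers, among them Itgam and Itgb2 of this same list, summed to 12.7 to 20.4 TPM over 9 genes at 3 dpi and to 42.4 to 63.5 TPM at 7 dpi. Endothelial markers summed to 17.2 to 44.7 TPM over 7 genes at 3 dpi and to 47.4 to 72.6 TPM at 7 dpi. Of these, Tek alone was at 14.9 to 25.4 TPM at 3 dpi and at 36.3 to 58.4 TPM at 7 dpi. At 3 dpi Cd3e, a T cell gene, was listed at 0 in all 4 libraries and Cldn5 in both Osr1cKO libraries. Their part in these values was not tested.

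Inside the cell, integrin tails are linked to actin by adaptor proteins such as talin, kindlin, vinculin, parvin and alpha-actinin. Of 28 such partner genes, 27 were tested at 3 dpi and 2 were called, both higher in Osr1cKO, against the 2.40% of all genes given above. Vcl, which encodes vinculin, was at 102 and 88.2 TPM in control, against 175 and 132 TPM in Osr1cKO, a log2 difference of 0.68 ± 0.19, and Tln2, a talin gene, was at 34.2 and 47.2 TPM against 70.5 and 62.1 TPM, a log2 difference of 0.71 ± 0.20 (limma, adjusted p = 0.774 for both). The groups did not overlap. Without Osr1cKO library 1 neither passed, at 0.45 for Vcl and 0.59 for Tln2, and without control library 2 Vcl did not pass, at 0.57. Exons of Ap3m1 on the other strand overlap 2090 of 8191 exonic bases of Vcl. At 7 dpi 0 of 26 were called. Pxn, which encodes paxillin, and Tns2 had the smallest p values, with log2 differences of -0.28 and -0.36 (limma, adjusted p = 0.326 and 0.346).

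Between the days 1 of 27 partner genes rose and 9 fell in control, where 16.7% of all genes rose and 21.7% fell. In Osr1cKO 3 of 26 rose and 11 fell, where 21.7% of all genes rose and 25.1% fell. The partners had median log2 differences of -0.26 and -0.36 against -0.01 and 0.00 over all genes. Tln1, the more abundant talin gene here, went from 267 and 260 TPM to 108 and 99.7 TPM in control and from 274 and 246 TPM to 134 and 120 TPM in Osr1cKO. Its log2 differences were -1.28 ± 0.11 (limma, adjusted p = 0.00388) and -1.09 ± 0.12 (limma, adjusted p = 0.00260). Actn4, an alpha-actinin, fell by 1.18 and 0.84, and Tns3, a tensin, fell by 0.94 and 0.78. Parvb, a parvin, went from 7.56 and 10.2 TPM to 1.45 and 0.944 TPM in control and from 7.9997 and 6.42 TPM to 4.50 and 2.12 TPM in Osr1cKO, and its log2 differences were -2.13 ± 0.25 and -1.03 ± 0.32. Tln2 fell by 1.16 in Osr1cKO, and in control it went from 34.2 and 47.2 TPM to 26.4 and 19.3 TPM. Ilk, outside the naming rule and picked out after its values were seen, was at 24.3 TPM in control library 2 of 3 dpi and at 205 to 428 TPM in the other 7 libraries, and 2461 of its 2744 exonic bases are shared with genes on the other strand.

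The ligands of these receptors include matrix proteins and the latent TGFβ complexes. The list also holds genes for parts of these complexes, such as Ltbp3, whose proteins need not bind an integrin themselves. Between days, of 30 genes, 8 rose and 4 fell in control and 8 rose and 6 fell in Osr1cKO, beside 16.7% and 21.7% of all genes in control and 21.7% and 25.1% in Osr1cKO. The median log2 differences of the ligands were 0.35 and 0.17, beside the same medians of all genes. Edil3, a ligand of Itgav receptors, went from 0.164 and 0.172 TPM to 5.70 and 5.43 TPM in control and from 0.555 and 0.257 TPM to 6.22 and 5.35 TPM in Osr1cKO, with log2 differences of 2.52 ± 0.16 and 2.24 ± 0.19. Vtn, which encodes vitronectin, rose by 1.05 and 0.93, and Ltbp3, a latent TGFβ binding protein, rose by 1.38 and 0.76. Tgfb3 rose by 1.97 in control and Lama5, a laminin chain, by 0.88 in Osr1cKO. For each of these changes both 7 dpi libraries lay above both 3 dpi libraries of the same genotype. In Osr1cKO, Tgfb3 went from 176 and 94.2 TPM to 221 and 252 TPM. Lama5 was low, at 0.153 and 0.154 TPM at 3 dpi and 1.19 and 1.13 TPM at 7 dpi in Osr1cKO. In control Lama5 went from 0.684 and 0.193 TPM to 1.90 and 0.533 TPM.

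Between genotypes, 3 of the 30 ligands were called at 3 dpi, all higher in Osr1cKO, against 2.40% of all genes called higher and 3.87% lower. These were Tgfb2 and Tgfb3, which encode TGFβ isoforms, and Ltbp3. Of the other genes of latent TGFβ in the list, none was called: Ltbp1, Nrros, Lrrc32 and Tgfb1 had log2 differences of -0.52, -0.17, -0.02 and 0.21 (limma, adjusted p from 0.831 to 0.992). Ltbp3 was at 70.7 and 72.7 TPM in control, against 97.4 and 92.8 TPM in Osr1cKO, with a log2 difference of 0.40 ± 0.12. Tgfb2 was at 61.4 and 49.3 TPM against 86.3 and 73.9 TPM, with 0.53 ± 0.17, and Tgfb3 was at 68.0 and 72.9 TPM against 176 and 94.2 TPM, with 0.87 ± 0.32 (limma, adjusted p = 0.774 for Ltbp3 and Tgfb2 and 0.784 for Tgfb3). Each lost its call without some library: Tgfb2 without control library 2 or Osr1cKO library 1, at 0.37 and 0.39, Ltbp3 without Osr1cKO library 1 or 2, at 0.34 and 0.46, and Tgfb3 without control library 1, control library 2 or Osr1cKO library 1, at 0.80, 0.91 and 0.39. At 7 dpi 0 of 30 were called. The median log2 difference of the 30 was 0.22 at 3 dpi and -0.15 at 7 dpi, against 0.01 over all genes at either day. In deposited TPM at 7 dpi, 7 lay above both controls in both Osr1cKO libraries and 9 below, against 42.8% and 10.7% of all genes. An unadjusted p under 0.05 at 7 dpi was held by 9 of the 30 and by 2096 of 16577 genes (limma). Lama2, the laminin chain of the myofibre basement membrane, was at 122 and 139 TPM in control, against 81.5 and 96.3 TPM in Osr1cKO, with a log2 difference of -0.68 ± 0.10 (limma, adjusted p = 0.215), and Spp1, which encodes osteopontin, was at 231 and 131 TPM against 793 and 492 TPM, with 1.71 ± 0.34 (limma, adjusted p = 0.245). The groups did not overlap for either. Both passed without control library 1, at -0.77 and 2.13, and without control library 2, at -0.59 and 1.29. In the model of both days, Ltbp3 and Tgfb3 had the smallest p of the ligands, at -0.67 and -1.23 (limma, adjusted p = 0.424 and 0.635), Vcl and Parvb of the partners, at -0.68 and 1.06 (limma, adjusted p = 0.662 and 0.716), and Itga2 and Itga3 of the other subunits, at 0.91 and 0.55 (limma, adjusted p = 0.653 and 0.719).

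**Figure D4:**
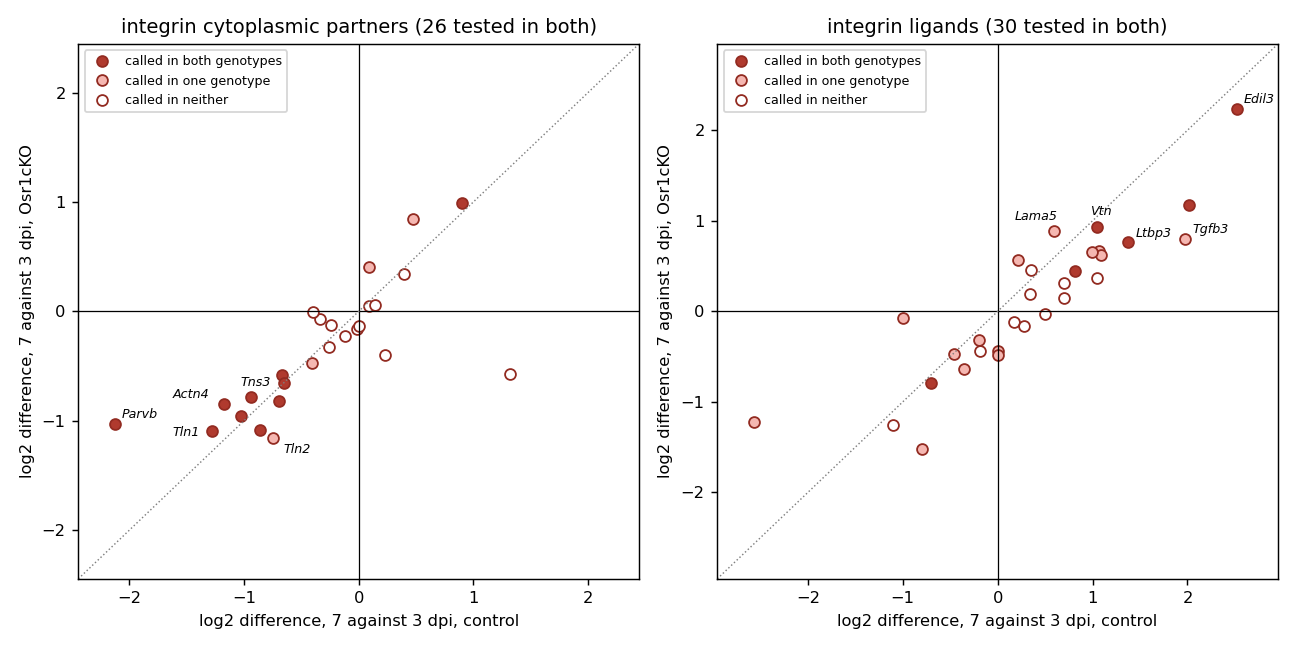
Log2 differences from 3 to 7 dpi in control (horizontal axes) and Osr1cKO (vertical axes) of the integrin partners (left, 26 genes) and ligands (right, 30 genes) tested in both, with 1 point per gene on the log2(scaled TPM + 1) scale and equal values on the dotted line. Filled points were called in both genotypes, pale points in 1 and open points in neither; Tln1, Actn4 and Tns3 lie at the lower left and Edil3 at the upper right.

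The genes whose levels ran most like the members that differed most between days in control were found by Pearson correlation of log2(TPM + 1) over the 8 libraries, among 10414 genes for Itga8 and 10413 for the others. For Itga8 these were Tbc1d12 (r = 0.994), Unc119 (r = 0.993) and Setbp1 (r = 0.992). For Itga11 they were Btg3 (r = 0.990), Gm17606 (r = 0.989) and Ndel1 (r = 0.988), and for Itga1 Bach1, Pde4b and Gria3 (r = 0.991 for each). The libraries fall into 2 days, which these values mostly reflect: Tbc1d12 was at 7.47 to 10.3 TPM at 3 dpi and at 18.0 to 19.8 TPM at 7 dpi, and Bach1 at 56.3 to 78.5 TPM and 120 to 149 TPM.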

How the data were processed

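RNA-seq libraries of 8 samples of GFP+ FAPs were analysed. The authors prepared stranded polyA libraries, aligned reads to mm10 with STAR and made TPM values from DESeq2-normalised fragment counts; counter, annotation and use of strand are not given in the sources used here. The deposited TPM tables hold 55385 entries; 109 repeats of 106 symbols were left out. GENCODE mouse release 21 (GRCm38) gave exon lengths for 53275 symbols, and 98.65% to 98.91% of values under 50 fragments then came out whole within 0.02. Groups and replicate numbers were taken from the sample labels. limma 3.58.1 (R 4.3.3) was fitted to log2(scaled TPM + 1), after scaling by trimmed log ratios, for genes with at least 10 fragments in 2 libraries and 15 in all, or a mean TPM of at least 1 without a length; a fold change is on that scale and understates that of low genes. p-values were adjusted over all genes tested (Benjamini-Hochberg), and those at 7 dpi concern pools of mice. They weigh each difference against the spread between 2 libraries per group, drawn towards that of genes of similar level. Fits were also run on simulated counts with the same spread for every gene, unlike real libraries, and nothing is concluded from those runs. Named were Osr1, the members, up to 4 called genes of smallest p per list and comparison (the 2 of smallest p where none was called), and the 3 genes most alike to each of the 3 members of largest change in control. The members and lists were chosen with earlier results of these data known. Platelet markers (4 genes, 6.05 to 11.6 TPM summed), Schwann cell markers (5 genes, 2.11 to 10.6 TPM) and myofibre markers (6 genes, 8.36 to 14.2 TPM at 3 dpi and 42.2 to 71.4 TPM at 7 dpi) were also summed. Alternatives were other scalings, pseudocounts, filters and thresholds, limma-voom on recovered fragments, robust estimation, all 8 libraries in 1 fit, a replicate block and leaving out each library. Promoters were read from RefSeq.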

Additional observations from a re-analysis of the deposited data

How the results depend on the processing

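With 2 libraries per group and 1 or 4 mice per library, differences in low genes such as Itga8 and Itgb8 rest on few fragments, and the pseudocount shrinks them. At 3 dpi, 0 genes were called at an adjusted p under 0.1, and all 8 libraries in the fit gave 1833 genes and 2 members, while no filter on low values gave 1 member. At 7 dpi, 1844 genes were called at an unadjusted p under 0.05 and 199 by limma-voom, against 11. None (0) were called without scaling, with a mean TPM filter, with no filter or with all 8 libraries. Between days without a filter, 3567 genes and 3 members were called in control and 4 members in Osr1cKO. The interaction gave 1207 genes and 3 members at an unadjusted p under 0.05, 3 genes with a pseudocount of 0.1, 1 with the mean TPM filter and 30 with no filter. Labels share replicate numbers, but deviations of same-numbered libraries correlated by -0.12 to 0.07, so the numbers were not taken as pairs. The replicate block gave 27 calls at 7 dpi, took the call of Itgav between days in control and gave one to Itgb3; it changed no other call of a member.

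The direction of some small differences turned. Itga5 at 3 dpi was 0.00021 with no filter and 0.026 with all 8 libraries. Without scaling, Itga7, Itgb5 and Itgb8 at 7 dpi were 0.071, 0.0067 and 0.086, and the interactions of Itga11, Itgb1 and Itgb3 were 0.025, 0.13 and 0.076. That of Itgb1 was also 0.0024 with no filter and 0.0099 by limma-voom.

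Leaving out each library gave 371 to 2804 genes and 0 to 2 members at 3 dpi, and without control library 1 the split was 584 higher and 348 lower against 377 and 608. It gave 7 to 470 genes at 7 dpi, 0 to 8562 genes and 0 to 9 members between days in control, 3454 to 7741 genes and 4 to 8 members in Osr1cKO, and 0 to 71 genes for the interaction. At 3 dpi the values ran from -0.14 to 0.11 for Itga5, -0.40 to 0.18 for Itga7, -0.080 to 0.46 for Itga11, -0.25 to 0.53 for Itgb3 and -0.043 to 0.43 for Itgb8. At 7 dpi they ran from -0.13 to 0.33 for Itga5, -0.23 to 0.13 for Itga7, -0.12 to 0.23 for Itgav, -0.10 to 0.29 for Itgb3 and -0.16 to 0.14 for Itgb8. For the interaction they ran from -0.15 to 0.31 for Itga5, -0.24 to 0.28 for Itga7, -0.39 to 0.084 for Itga11, -0.13 to 0.042 for Itgb1, -0.50 to 0.31 for Itgb3 and -0.48 to 0.024 for Itgb8. Where 1 library was left in a group, it was assumed to vary like the other group. The causes were not tested.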
